A study of Homo sapiens with 3 samples.

Results

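The transcripts described here are those of human genes named ZNF with a number, the largest symbol series among the zinc finger genes. Members were chosen by annotation alone: a cluster was kept when the deposited sense-strand annotation named such a gene and a RefSeq coding-transcript exon, and when it carried no noncoding class. The rule kept 214 of 11577 clusters in replicate 1, 276 of 18065 in replicate 2 and 50 of 5099 in replicate 3, or 540 of 34741 in all. In the series-wide list, which holds clusters with reads from at least 2 replicates, it kept 139 of 8469. Of the 679 clusters in the 4 lists, 676 lay on an exon that RefSeq assigns to the named ZNF gene, and the other 3 lay on the readthrough transcript ZNF816-ZNF321P.

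Each sample was a FLAG:DICER PAR-CLIP library made with RNase T1 from the human embryonic kidney line Flp-In HEK293 T-Rex. The 3 libraries are replicates of 1 group. Whether they stem from different cultures is not in the labels, and p-values therefore measure a spread that may be technical. In PAR-CLIP, ultraviolet light links a photoreactive uridine analogue in RNA to the bound protein, and the linked sites read as T-to-C conversions. The value of a cluster below is its count of such conversions, and distinct reads are reads of different sequence or position as the authors counted them.

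Most ZNF genes encode proteins with tandem zinc fingers, each a short loop of cysteines and histidines around a zinc ion, which read DNA sequence. Many also carry a KRAB domain, which recruits the corepressor TRIM28 and thereby silences transposable elements and genes. In such genes the fingers are typically encoded by a single long last exon, which also holds the 3' untranslated region. DICER, an RNase III enzyme, is known for cutting miRNA hairpins and long double-stranded RNA, and mRNAs are not its textbook substrates. Transcript levels were not measured here and no untagged control was used, so contact and abundance cannot be told apart in the conversions.

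ZNF clusters were a small group. Among mRNA exon clusters, meaning all those that meet the same conditions for any gene, they made up 3.18% ± 0.460 of the number and held 2.81% ± 0.213 of mRNA exon conversions (SD, n = 3). The sums were 3571, 2146 and 1238 conversions in replicates 1, 2 and 3. The median ZNF cluster had 13, 6 and 18.5 conversions in the 3 replicates, against 13, 6 and 19 for clusters on other mRNAs, and 2 distinct reads in each replicate of both sets. No cluster of either set had only 1 distinct read, so 2 was the lowest value. Clusters with 3 or more distinct reads were 43.0%, 19.2% and 4% of ZNF clusters, against 46.6%, 28.6% and 9.79% of the others. Reads from both sequencing runs of a library were recorded for 42.5%, 91.7% and 100% of ZNF clusters and for 48.5%, 91.6% and 100% of the others. The lists of the replicates thus differ in depth and make-up, and each value is given per replicate. Besides the coding-transcript exon, an intron was annotated at 50, 86 and 14 ZNF clusters, or 23.4%, 31.2% and 28.0%. Among clusters on other mRNAs the shares were 15.8%, 17.3% and 15.9%, compared with no test. The part of these clusters in the comparisons of region and Alu below was not tested.

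In the replicates 208 ZNF gene names had at least 1 cluster, of which 110 had one in 1 replicate, 80 in 2 and 18 in all 3. Of 509 protein-coding ZNF symbols in RefSeq, 200 were among them (39.3%), and of all 20052 protein-coding symbols 5496 (27.4%) were named by an mRNA exon cluster, both counted by current symbol with no test. Chromosome 19, known for its large arrays of zinc finger genes, held 102 of the 208. It held 47.5% ± 1.81 of ZNF clusters, against 7.76% ± 1.27 of clusters on other mRNAs (SD, n = 3). The 18 genes seen in all 3 replicates were 8.65% of the 208, against 14.4% of all 6336 genes named by an mRNA exon cluster. A gene counted here may have its clusters at different places in each replicate.

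In all 3 replicates, 7 places in 6 genes carried a cluster. Joining overlapping clusters on the same strand gave 479 places, of which 425 were seen in 1 replicate, 47 in 2 and 7 in 3 (1.46%). Clusters on other mRNAs were not joined in this way, so the counts of places here have no share over all genes beside them. The 7 had a median of 5 distinct reads per cluster, against 2 for places seen in fewer replicates. By annotated region, 2 lay in 5' untranslated regions, 2 in 3' untranslated regions, 2 touched both coding sequence and 3' untranslated region and 1 touched coding sequence and 5' untranslated region in at least 1 list. None was annotated as coding sequence alone in every replicate, against 139 places of that kind in all.

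**Figure D1:**
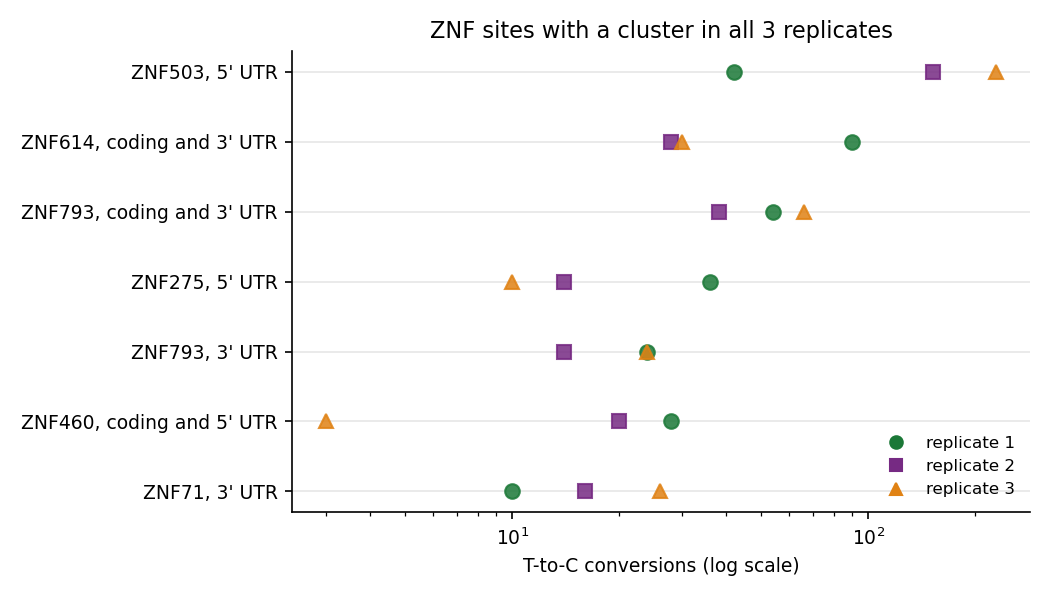
T-to-C conversions (log scale) at the 7 ZNF places with a cluster in all 3 replicates, 1 symbol per replicate, with the annotated regions that their clusters touched. The ZNF503 place reached 229 conversions in replicate 3, and the ZNF460 place had 3 there.

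The strongest ZNF cluster lay at the start of ZNF503, a zinc finger repressor known from limb and brain development. This cluster (hg19 chromosome 10, 77161477 to 77161522, minus strand) was annotated as 5' untranslated region of the first exon and touched an annotated transcription start. It had 42, 152 and 229 conversions in replicates 1, 2 and 3, on 15, 31 and 22 distinct reads, and 301 in the series-wide list. It ranked 14, 1 and 1 by conversions among the ZNF clusters of its replicate. On the opposite strand the files list the noncoding gene ZNF503-AS2. The other 5' untranslated place was in ZNF275 (chromosome X, 152599613 to 152599682, plus strand), with 36, 14 and 10 conversions on 11, 5 and 2 distinct reads. ZNF503 was thus lowest in replicate 1 and ZNF275 highest there.

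ZNF793, on chromosome 19, was the only ZNF gene with 2 such places, both in its exon 8. The first (38029377 to 38029430, plus strand) lay opposite an AluSg repeat, with 54, 38 and 66 conversions on 10, 10 and 4 distinct reads. The second (38033333 to 38033379) lay in the 3' untranslated region on a sense L1MC4a repeat, with 24, 14 and 24 conversions on 3, 4 and 2 distinct reads. Between them, a place on a sense AluSq2 repeat (38031059 to 38031096) had 12 and 5 conversions in replicates 1 and 2. A further one on a sense AluSx1 repeat (38033059 to 38033100) had 21 in replicate 2 alone. The same exon thus carried clusters on Alu repeats of both orientations.

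The remaining shared places were on chromosome 19 too. ZNF614 (52516757 to 52516815, minus strand, exon 5, coding sequence and 3' untranslated region in different transcripts or across the boundary) had 90, 28 and 30 conversions and lay opposite an L1MC4a repeat. ZNF460 (57796007 to 57796047, plus strand, exon 2, coding sequence and 5' untranslated region) had 28, 20 and 3 conversions. ZNF71 (57134451 to 57134485, plus strand, exon 3, 3' untranslated region) had 10, 16 and 26 conversions. None of these 3 places kept the same order of replicates as another, and each rested on 2 to 8 distinct reads per replicate.

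Coding sites were fewer than 3' untranslated sites in each replicate. Coding sequence alone held 66 of 214, 78 of 276 and 7 of 50 ZNF clusters, which is 30.8% (95% Wilson interval 25.04 to 37.3), 28.3% (23.3 to 33.8) and 14.0% (6.95 to 26.2). The 3' untranslated region alone held 92, 125 and 21, which is 43.0% (36.5 to 49.7), 45.3% (39.5 to 51.2) and 42.0% (29.4 to 55.8). The coding share was lower than the 3' untranslated share by 12.1, 17.0 and 28.0 percentage points, a mean difference of -19.1 ± 8.12 (SD, n = 3). The exact two-sided sign-flip permutation test over replicates gave p = 0.25, the smallest that 3 replicates allow, and an adjusted p of 0.5 over a family of 10 tests. Alternatives given below without an adjusted p lie outside this family. Region lengths were not taken into account, and the intervals cover counting error only.

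Against other mRNAs, the ZNF share in coding sequence alone showed no steady difference. The share in the 3' untranslated region alone was lower in each replicate. The coding share was 24.4% ± 9.07 of ZNF clusters and 28.3% ± 0.459 of other mRNA exon clusters, a difference of -3.94 percentage points ± 9.33 (SD, n = 3; exact sign-flip permutation p = 1, adjusted p = 1). ZNF was above the others by 2.36 and 0.477 points in replicates 1 and 2 and below by 14.7 in replicate 3, so the mean difference without replicate 3 was 1.42. The 3' untranslated share was 43.4% ± 1.69 in ZNF and 51.5% ± 1.40 in other mRNAs (SD, n = 3), a comparison made with no test. It leaves out clusters that touched another region as well. With those added, the ZNF share was not lower in each replicate. Clusters annotated as both coding and 3' untranslated were 13.1%, 15.9% and 20.0% of ZNF clusters, against 7.64%, 7.22% and 5.75% of the others. That difference averaged 9.47 points ± 4.45, in 3 of 3 replicates (exact sign-flip permutation p = 0.25, adjusted p = 0.5; a test added after the values were seen). More than 1 gene was named at 11 of 28, 12 of 44 and 2 of 10 such ZNF clusters, and with 1 gene named the difference was 2.68, 7.80 and 13.3 points. ZNF714 had 8 separate places of this kind and ZNF793 had 7, each set within a single exon of its gene. When each region touched was counted, ZNF exceeded the others in coding share by 5.46 points ± 4.10 (SD, n = 3).

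**Figure D2:**
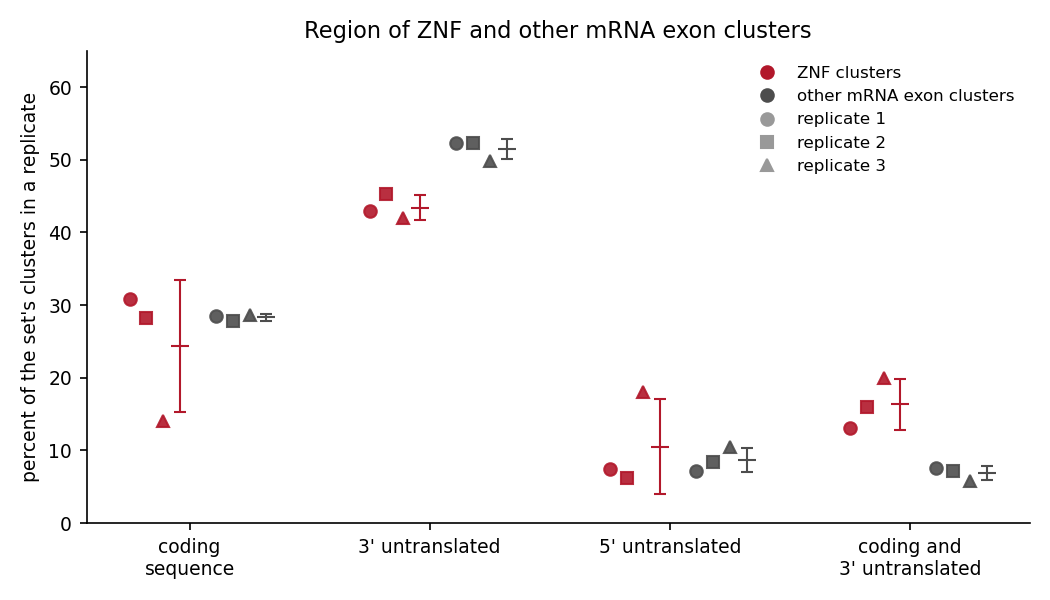
Percent of ZNF clusters (red) and of other mRNA exon clusters (grey) in each annotated region, with 1 symbol per replicate and the mean ± SD of the 3 replicates at the right of each set. ZNF clusters lie below the others in the 3' untranslated region alone and above them among clusters that touch both coding sequence and 3' untranslated region, in all 3 replicates.

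Coding sites of ZNF genes shared an exon with 3' untranslated sites more often than those of other mRNAs in each replicate. Of the coding clusters whose transcript also had a 3' untranslated cluster in any replicate, 27 of 37, 17 of 35 and 3 of 4 lay in the same exon as that cluster, or 73.0%, 48.6% and 75%. In other mRNAs the shares were 22.0%, 19.1% and 17.5%, of 950, 958 and 263 coding clusters. The difference averaged 46.0 percentage points ± 14.7, in 3 of 3 replicates (exact sign-flip permutation p = 0.25, adjusted p = 0.5; a test added after the values were seen). The set of exons came from all 3 replicates, so the replicates are not fully separate here. As given above, the last exon of many ZNF genes typically holds both the fingers and the 3' untranslated region. How much coding sequence lies in such exons was not measured for either set. The part of gene structure in this difference was therefore not tested. Which coding sites lie within fingers was not tested, because no protein sequence or hg19 genome was used here. Over the replicates, 35 ZNF genes had both a coding and a 3' untranslated cluster, 59 a coding but no 3' untranslated one and 67 the reverse.

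Ranked by summed coding conversions in the series-wide list, with no division by length, ZNF711 came first. ZNF711, an X-linked gene whose loss is known in intellectual disability, had 307, 33 and 32 conversions in replicates 1, 2 and 3, from 14, 5 and 1 clusters. It had 6, 1 and 0 coding clusters, with 118, 2 and 0 conversions, and 6, 4 and 1 in the 3' untranslated region, with 115, 31 and 32. Its coding place on chromosome X (84510531 to 84510628, plus strand) had 49 conversions in replicate 1 and 2 in replicate 2. ZNF317 followed, with a coding place (chromosome 19, 9271773 to 9271800, plus strand) at 36 and 19 conversions in replicates 1 and 2. The coding place of ZNF45 (chromosome 19, 44419287 to 44419332, minus strand) had 50 and 15, and that of ZNF574 (chromosome 19, 42582841 to 42582876, plus strand) 28 and 12. All of these coding places were higher in replicate 1 than in replicate 2 and had no cluster in replicate 3. The lists differ in the same way. The median coding cluster had 9 conversions in replicate 1 and 5 in replicate 2 in ZNF genes, and 12 and 5 in other mRNAs. Replicate 3 held only 7 coding ZNF clusters. ZNF462, a gene known in neurodevelopment, had 2 coding clusters with 40 conversions in the series-wide list and no member cluster in any replicate list, so the series-wide list is not a subset of the others. ZNF703, a repressor known as a breast cancer oncogene, had 8, 6 and 1 coding clusters but only 30, 39 and 4 coding conversions.

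Ranked the same way by 3' untranslated conversions, ZNF460 came first, followed by ZNF711, described above. ZNF460 had 57, 78 and 30 conversions in 3, 3 and 1 clusters, led by a place (chromosome 19, 57804024 to 57804073, plus strand) with 24 and 66 in replicates 1 and 2. ZNF295, a BTB-domain zinc finger gene now named ZBTB21, had 64 and 38 conversions there in replicates 1 and 2 and none in replicate 3, and both of its places (chromosome 21, 43409149 to 43409176 and 43410762 to 43410787, minus strand) were seen in both. ZNF740 had 63, 28 and 75 conversions in 4, 4 and 2 clusters, all in the 3' untranslated region. ZNF805, named for its number of clusters in the series-wide list and not by this ranking, had 4, 6 and 0 clusters there, with 74 and 27 conversions in replicates 1 and 2. Its strongest cluster (chromosome 19, 57764502 to 57764542) instead touched coding sequence and 5' untranslated region, with 110 and 4 conversions. ZNF587 had 97, 31 and 8 conversions in 4, 6 and 1 clusters, all 3' untranslated. No 3' untranslated place of these 5 genes or of ZNF711 was seen in all 3 replicates.

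Coding sites also had a lower median of conversions than 3' untranslated sites in each replicate. The median was 9, 5 and 13 conversions per coding cluster in replicates 1, 2 and 3, against 14, 6 and 23 per 3' untranslated cluster. The difference of median log2 conversions was -0.64, -0.26 and -0.82, a mean of -0.57 ± 0.29 (SD, n = 3; exact sign-flip permutation p = 0.25, adjusted p = 0.5). With only the strongest cluster of each gene kept, the differences were -0.22, -0.22 and 0.32, a mean of -0.043 ± 0.31. With ZFP, ZKSCAN, ZSCAN and ZBTB genes added they were -0.56, 0 and -0.20, a mean of -0.25 ± 0.28. Both kinds ranged widely and overlapped, from 1 to 50 conversions for coding clusters and 1 to 61 for 3' untranslated ones in replicate 1. Median distinct reads were 2 for both in each replicate, a difference of 0 (exact sign-flip permutation p = 1, adjusted p = 1). Because 2 is the lowest count in the lists and most clusters had it, this test of medians could not show a difference. Clusters with 3 or more distinct reads were 40.9%, 11.5% and 0% of coding clusters. They were 44.6%, 20.0% and 0% of 3' untranslated clusters, compared with no test. In other mRNAs the medians were 12, 5 and 17 for coding clusters and 14, 6 and 20 for 3' untranslated clusters, so the order was the same.

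**Figure D3:**
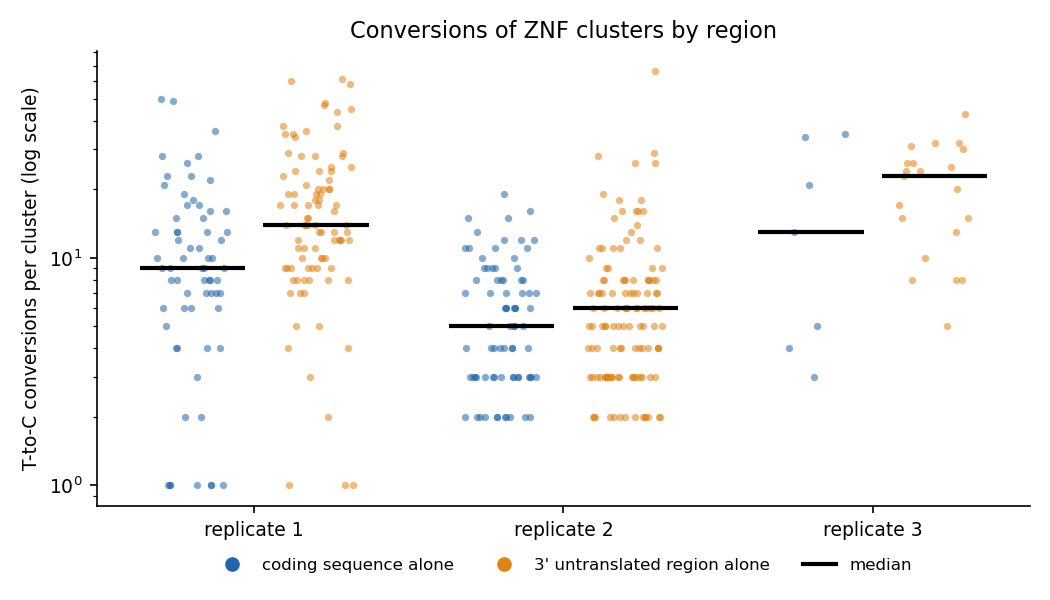
T-to-C conversions per ZNF cluster (log scale) in coding sequence alone (blue) and in the 3' untranslated region alone (orange), 1 point per cluster, with the median as a bar. The medians are 9, 5 and 13 for coding and 14, 6 and 23 for 3' untranslated clusters in replicates 1, 2 and 3, and the points overlap in each.

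Alu repeats, short interspersed elements of primates that can form double-stranded RNA when 2 of opposite orientation pair, were found at ZNF sites that were not annotated as coding sequence alone. No coding cluster had an Alu on either strand, whether in ZNF genes (0 of 66, 0 of 78 and 0 of 7) or in other mRNAs (0 of 1819, 0 of 2051 and 0 of 518). On the sense strand an Alu was named at 3 of 92, 5 of 125 and 0 of 21 ZNF 3' untranslated clusters, or 3.26%, 4% and 0%, and the last count allows a share of up to 14.3%. Other mRNAs had 1.44%, 1.58% and 2.11%. The ZNF share exceeded the others by 0.713 percentage points ± 2.46, in 2 of 3 replicates (SD, n = 3; exact sign-flip permutation p = 0.75, adjusted p = 1), and by -0.141 without replicate 2. Within ZNF genes, coding minus 3' untranslated was -2.42 points ± 2.13 (SD, n = 3; exact sign-flip permutation p = 0.5, adjusted p = 0.833), which cannot be above 0 where no coding cluster has an Alu.

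Alu repeats on the opposite strand took a larger share of 3' untranslated clusters in ZNF genes than in other mRNAs, and ZNF587 carried part of this, including all of it in replicate 3. They were named at 10 of 92, 11 of 125 and 1 of 21 ZNF clusters, or 10.9% (95% Wilson interval 6.01 to 18.9), 8.80% (4.98 to 15.1) and 4.76% (0.846 to 22.7). In other mRNAs the shares were 1.68%, 2.20% and 1.88%. The difference was 6.22 points ± 3.17, in 3 of 3 replicates (SD, n = 3; exact sign-flip permutation p = 0.25, unadjusted), a strand choice made after the data were seen. ZNF587 held 1 of the 10, 5 of the 11 and the only 1 of these ZNF clusters. Without ZNF587 the difference was 8.55, 2.84 and -1.88 points, a mean of 3.17 ± 5.23 (exact sign-flip permutation p = 0.5). With 1 cluster a gene it was 5.01 points ± 1.66, in 3 of 3 replicates (exact sign-flip permutation p = 0.25). With either strand counted it was 7.01 points ± 5.50, with 11.2, 9.10 and 0.771 in replicates 1, 2 and 3 (exact sign-flip permutation p = 0.25). For any interspersed repeat on the sense strand it was 6.72 points ± 1.74 (exact sign-flip permutation p = 0.25). Clusters that touched more than 1 region had an Alu on either strand in 8 of 40, 10 of 56 and 2 of 13 cases in ZNF genes, against 18 of 768, 26 of 848 and 7 of 199 in other mRNAs, compared with no test. How much of ZNF 3' untranslated sequence is Alu was not measured, so the shares are not relative to repeat content.

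In total 24 ZNF gene names had a cluster on an Alu in any list: 8 on sense Alus alone, 9 on opposite-strand Alus alone and 7 on both. ZNF793, ZNF587 and the overlapping genes ZNF321P and ZNF816 had the most conversions at Alus in the series-wide list. In ZNF587 the place with the most (chromosome 19, 58371923 to 58371970, plus strand) lay opposite an AluSz repeat, with 35 and 8 conversions in replicates 1 and 2. The ZNF321P and ZNF816 place (chromosome 19, 53430664 to 53430692, minus strand) lay on a sense AluSz, with 48 and 5 conversions in replicates 1 and 2. Of all clusters at Alus, only the ZNF793 one opposite AluSg was seen in all 3 replicates. Alus and zinc finger genes both have many near-identical copies, and whether reads were placed at the right copy was not tested.

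**Figure D4:**
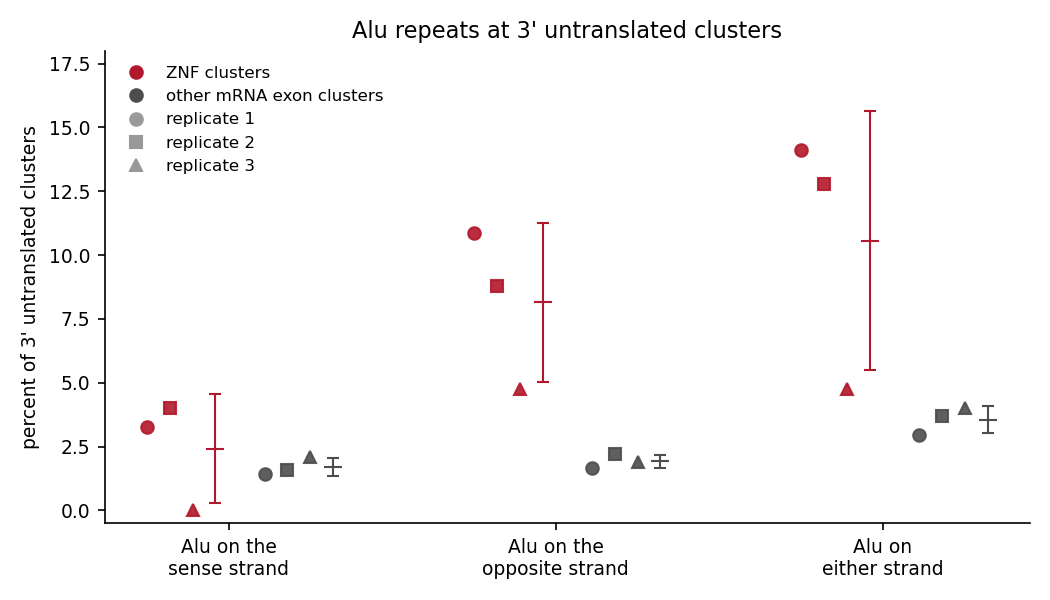
Percent of 3' untranslated clusters with an Alu name on the sense strand, on the opposite strand or on either, for ZNF genes (red) and other mRNAs (grey), with 1 symbol per replicate and the mean ± SD at the right of each set. On the opposite strand the ZNF values of 10.9%, 8.80% and 4.76% lie above all 3 values of the other mRNAs, the last through 1 cluster of ZNF587.

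Replicate support was lower for ZNF clusters than for other mRNA exon clusters in each list. A cluster in both other replicates overlapped 7 of 214, 7 of 276 and 7 of 50 ZNF clusters, or 3.27%, 2.54% and 14.0%, where the shares of all mRNA exon clusters were 6.73%, 5.69% and 23.1%. ZNF minus other mRNAs was -5.40 percentage points ± 3.42, negative in 3 of 3 replicates (SD, n = 3; exact sign-flip permutation p = 0.25, adjusted p = 0.5). Overlap is mutual, and the 7 ZNF clusters of each replicate lay at the same 7 places. The 3 differences are therefore not separate, which the SD and the p-value do not take into account. The same holds in part for support in at least 1 other replicate. Support in at least 1 other replicate was found for 48, 51 and 16 ZNF clusters, or 22.4%, 18.5% and 32.0%, where all mRNA exon clusters had 31.2%, 27.4% and 41.0%. ZNF clusters also had 3 or more distinct reads less often, as given above, and the part of this in their support was not tested. With a minimum of 3 distinct reads the support difference was -5.02 and -3.81 points in replicates 1 and 2 and 27.7 in replicate 3, which then kept only 2 ZNF clusters, so the mean was 6.29 ± 18.5 (SD, n = 3).

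Within ZNF genes, the support of coding against 3' untranslated sites depended on how support was counted. In both other replicates, the main count, the difference had no steady sign and rested on few clusters. When 1 other replicate was enough, an alternative count, coding sites had less support in each replicate. In at least 1 other replicate, 11 of 66, 10 of 78 and 1 of 7 coding clusters had support, or 16.7%, 12.8% and 14.3%, against 24 of 92, 26 of 125 and 8 of 21 3' untranslated clusters, or 26.1%, 20.8% and 38.1%. The difference was -13.7 points ± 8.75, in 3 of 3 replicates (SD, n = 3; exact sign-flip permutation p = 0.25, unadjusted). Because overlap is mutual, the replicates are not fully separate here. In other mRNAs the shares were 24.7%, 22.3% and 31.7% for coding clusters and 34.0%, 29.8% and 45.1% for 3' untranslated clusters. The order was thus the same there and not particular to ZNF genes. In both other replicates the ZNF counts were 1, 0 and 1 coding clusters and 2, 2 and 2 3' untranslated clusters, a difference of -0.659, -1.60 and 4.76 points in replicates 1, 2 and 3. Its mean was 0.834 ± 3.43 (SD, n = 3; exact sign-flip permutation p = 1, adjusted p = 1), or -1.13 without replicate 3. The 5' untranslated clusters of ZNF genes had support in both others for 2 of 16, 2 of 17 and 2 of 9. That is 12.5%, 11.8% and 22.2%, against 14.3%, 10.5% and 36.0% of 5' untranslated clusters in other mRNAs.

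**Figure D5:**
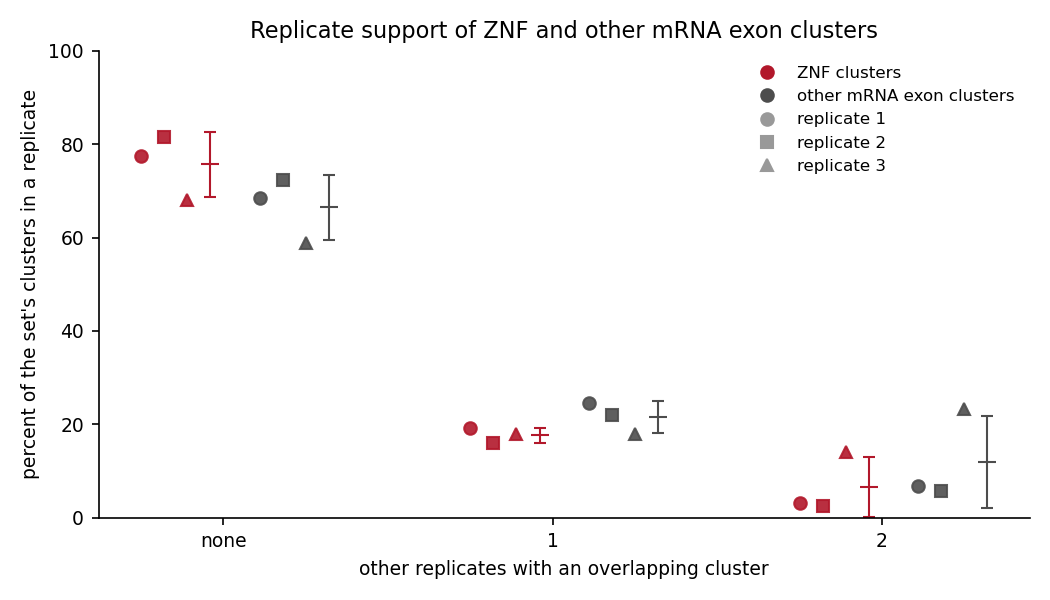
Percent of ZNF clusters (red) and other mRNA exon clusters (grey) that overlap a cluster in none, 1 or 2 of the other replicates, with 1 symbol per replicate and the mean ± SD at the right of each set. In each replicate a larger share of ZNF clusters, 77.6%, 81.5% and 68.0%, had no overlapping cluster, against 68.5%, 72.3% and 58.8% of the others. Overlap is mutual, so the values of the replicates are not separate.

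The partners of KRAB zinc finger proteins were seen in part. Of 20 partner symbols, 2 of which (TASOR and FAM208A) name 1 gene, 12 had an mRNA exon cluster in any replicate and 4 had one in all 3, or 33.3% of the 12, against 14.4% of all genes named by such a cluster. TRIM28, the corepressor itself, had 43, 15 and 55 conversions in replicates 1, 2 and 3, in coding sequence and, in replicate 1, also in the 5' untranslated region. The heterochromatin proteins CBX5, CBX1 and CBX3, which bind methylated histone, had theirs in the 3' untranslated region, with a 5' untranslated site of CBX3 besides in replicate 3. The 12, 15 and 6 clusters of CBX5 held 366, 174 and 182 conversions, CBX1 had 152, 8 and 23, and CBX3 had 77, 24 and 43. No mRNA exon cluster named 8 of the 20 symbols: the histone methyltransferase SETDB1, DNMT1, HDAC1, ATF7IP, MORC2, DAXX, SMARCAD1 and TASOR, the last found as FAM208A. A further 5 had one in 1 replicate and 3 had one in 2. Partners with a cluster in each replicate were thus TRIM28, CBX1, CBX3 and CBX5 alone. With so few genes, their share was not tested.

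Other zinc finger families gave few genes. With a cluster in all 3 replicates were 3 of 11 ZFP genes (ZFP91, ZFP30 and ZFP106, the last also listed as ZNF106), 3 of 20 ZBTB genes (ZBTB33, ZBTB39 and ZBTB7A), 0 of 4 ZKSCAN, 0 of 8 ZSCAN and 0 of 3 ZC3H genes. ZFP91, a zinc finger ubiquitin ligase, had 153, 70 and 15 conversions in replicates 1, 2 and 3. ZBTB33, which encodes the methyl-DNA binding protein Kaiso, had 91, 39 and 48. With so few genes, their shares were not compared with the 8.65% of ZNF genes.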

How the data were processed

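The deposited data are cluster lists, 1 for each replicate and 1 for the series, with Bowtie2 2.1.0 and build hg19 named in the submitters' processing notes. The files record an estimated false discovery rate of 5% for each cluster, and the settings of the cluster caller were not used here. The authors' count of conversions in a cluster is not normalized to depth. The authors' entropy score per cluster was read and not used. The lists held 1306125, 1060791 and 595487 conversions in replicates 1, 2 and 3. Such sums cover the listed clusters alone, and the depth of the libraries is unknown.

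Regions (coding, 3' and 5' untranslated), exons, genes and repeats were read from the deposited annotation, and a cluster with more than 1 region was a class of its own. An overlap of 1 nt or more on the same strand counted as shared. Differences between sets were taken per replicate, and their signs were permuted exactly (two-sided) over the 3 replicates, with Benjamini-Hochberg adjustment over 10 tests, 2 of them added. The p-values of alternatives were not adjusted. Overlap and test functions were tested on simulated data. Wilson intervals have a level of 95%. Genes were named by ranks of conversions or clusters in the series-wide list: those with a place seen in all 3 replicates, up to 5 by clusters, by coding and by 3' untranslated conversions, 3 by conversions at Alus, and partners with a cluster in all 3 replicates. The other genes and counts named were chosen after their values were seen. Gene names were matched to RefSeq (GRCh38.p14), 207 of 214 by symbol and 7 by an older name. Alternatives were a minimum of 3 distinct reads, the median of conversions, other symbols, 1 gene per cluster, 1 cluster per gene, other overlaps and repeat definitions, and each replicate left out. The members, lists and tests were chosen with earlier results of these data known. Python 3.11.15, pandas 2.3.3 and scipy 1.17.1 were used.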

Additional observations from a re-analysis of the deposited data

Results flagged for a closer look

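Clusters that name a ZNF gene on the sense strand but no RefSeq coding-transcript exon lie outside the comparisons above, and drew attention because they numbered far above the limit that a count of 0 allows. There were 56 in replicate 1, 226 in replicate 2 and 47 in replicate 3, or 20.7%, 45.0% and 48.5% of all clusters that name a ZNF gene. An intron was annotated at 45, 202 and 41 of them. They held 1034, 1278 and 855 conversions, with a median of 12, 4 and 15 per cluster. In each replicate 1 of them overlapped a cluster in both other replicates. An Alu lay on the sense strand at 7, 26 and 7 and on the opposite strand at 5, 40 and 18 of them. The same counts for other genes were not made, so none of these is read as a trait of ZNF introns. Some clusters within the comparisons above carried an intron annotation too, besides their exon.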

How the results depend on the processing

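Of 99 recomputed differences, 87 kept their sign or stayed at 0, 10 changed sign and 2 moved from 0. No test can pass with 3 replicates. Among the 87 are differences in median distinct reads that stayed at 0. Also among them are Alu shares of coding minus 3' untranslated clusters, which cannot be above 0. The 87 therefore do not measure how steady the results are. For ZNF minus other coding share, leaving out 1 replicate gave -7.09 to 1.42 percentage points, and counting each region touched gave 5.46. For sense Alus at 3' untranslated clusters, ZNF minus others was -0.141 to 2.12 without 1 replicate. For support of coding minus 3' untranslated clusters it was -1.13 to 2.05 without 1 replicate, -5.78 from the median number of conversions upward, -1.29 with ZFP, ZKSCAN, ZSCAN and ZBTB genes added, -2.18 with 1 cluster a gene and -13.7 for support in at least 1 other replicate. ZNF minus other support averaged 6.29 with 3 or more distinct reads, from -5.02, -3.81 and, with 2 ZNF clusters in replicate 3, 27.7. Coding minus 3' untranslated log2 conversions was 0.11 from the median upward, a limit set on the compared value itself that therefore says nothing about it, and for log2 distinct reads -0.19 there and -0.049 with means. The cause of these changes was not tested, and several rest on few clusters. With 3 or more distinct reads, 6 differences could not be computed because replicate 3 kept no coding or 3' untranslated ZNF cluster, and the shared-exon difference could not be computed from the median upward either. The lists are shallow, so a cluster missing from a replicate does not show that its RNA was not bound. No paired analysis was possible because the samples form 1 group, so no replicate number joins samples of different groups. Sets of clusters were compared within each replicate.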

Other observations

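Some clusters lay on the strand opposite a ZNF gene and named none on their own strand. There were 21 with 614 conversions in replicate 1, 49 with 567 in replicate 2 and 11 with 374 in replicate 3. In each replicate 2 of them overlapped a cluster in both others, as did 6.73%, 5.69% and 23.1% of all mRNA exon clusters. Clusters opposite other genes were not counted, so no share over all genes is given.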
